A study of Mus musculus with 4 samples.

Results

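*Fgf5*, *Otx2*, *Pou3f1*, *Zic2*, *Zic5*, *Foxd3*, *Sox4* and *Sox11* are genes that become or stay active when the pluripotent cells of the mouse embryo leave the naive state. They were taken by symbol from the RNA-seq tables, where all 8 were found among 22718 genes. The study compared C57BL/6 wild type mouse ES cells with C57BL/6 ES cells labelled *Prep1*-/- (KO2 line), both kept in serum with LIF, by RNA-seq of polyA RNA, and it mapped Prep1 binding by ChIP-seq in R1 ES cells, another wild type line. Each genotype has 1 library, made from 1 line, so a difference between the libraries has no replicate check, and a line and its genotype cannot be told apart. The Prep1 antibody (N15) can also recognise Prep2, although much more weakly, and the peaks were called on 1 ChIP library against input DNA.

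ES cells in LIF resemble the naive epiblast of the blastocyst. Around implantation the epiblast passes through a formative state, when the naive factors decline and *Fgf5*, *Otx2*, *Pou3f1* and the *Zic* genes come on, and then a primed state, in which cells are ready to be allocated to germ layers. Otx2 redirects Oct4 to new enhancers in this transition and Foxd3 remodels enhancers, while Sox4 and Sox11 are better known from neural and mesenchymal progenitors. Prep1, encoded by *Pknox1*, is a TALE homeodomain protein that binds DNA together with Pbx partners.

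The 8 genes did not move as a group between the libraries. In the library labelled *Prep1*-/-, *Otx2* was 2.20 times and *Foxd3* 1.95 times as high as in wild type. *Fgf5* was at 0.323 times its wild type level, on few reads. *Pou3f1* and *Zic2* were close to equal, and *Zic5*, *Sox4* and *Sox11* lay between 0.809 and 0.897 times wild type. Prep1 peaks were found at the starts of *Otx2*, *Pou3f1*, *Zic5* and *Sox11*, and the other gene with a large ratio and enough reads, *Foxd3*, lay far from any listed peak.

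The files assign 29596294 reads to genes for wild type and 25717811 for the library labelled *Prep1*-/-. The methods of the study state far fewer reads per sample than these sums, a difference that could not be settled here, so the counting intervals may be too narrow. The target gene itself, *Pknox1* on chromosome 17, kept 332 reads and an RPKM of 5.78 under the *Prep1*-/- label, beside 505 reads and an RPKM of 7.85 in wild type. Its KO/WT ratio was 0.736, with a 95% counting interval from 0.638 to 0.846. RPKM scales the reads by gene length and by library size, so it can be set beside that of other genes. Reads of *Pknox1* were thus still present, and every direction given here is that of the library with this label. These values are of RNA and do not measure the protein. By immunoblot the paper reported loss of the Prep1 protein in its *Prep1*-/- ES cell lines, KO2 among them. Both libraries carried the ES cell marker *Pou5f1*, at 323 and 360 RPKM. In bulk RNA, fewer cells expressing a gene and less RNA per cell cannot be told apart.

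Binding was examined first. The deposited list holds 3902 Prep1 peaks on mm9, each with a score that equals the fold enrichment over input rounded to a whole number (median 21, range 4 to 336). The peak scores that the paper compares are another measure, derived from the p-value of each peak. Of the 8 genes, 5 had a peak inside the gene or within 20 kb of its annotated start, compared with 21.0% of the 21446 genes that could be placed and 26.4% of those with a wild type RPKM above 1. Within 500 bp upstream to 100 bp downstream of the start, 4 of 8 had a peak, compared with 7.59% of all genes placed. These counts describe 8 genes chosen by name, of which *Zic2* and *Zic5* share 1 peak.

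The strongest of these peaks lay on *Zic5*, a zinc finger gene whose start faces that of *Zic2* across 9705 bp. It spanned chr14:122864338-122865079, from 180 bp upstream to 561 bp downstream of the *Zic5* start, and its score of 83 was above that of 83.7% of all peaks. The same peak ended 9.53 kb upstream of *Zic2*. A second peak with a score of 22 lay downstream of *Zic5*, with its midpoint 41955 bp from the *Zic5* start. At *Sox11* the peak (chr12:28028032-28028629, score 26) lay entirely upstream, between 1055 and 458 bp before the start. At *Pou3f1* it covered chr4:124334238-124334910 with a score of 20 and reached from 658 bp upstream to 14 bp past the start. The *Otx2* peak (chr14:49286947-49287551) crossed the start and had the lowest score of these 4, 10, above that of 6.77% of all peaks.

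**Figure D1:**
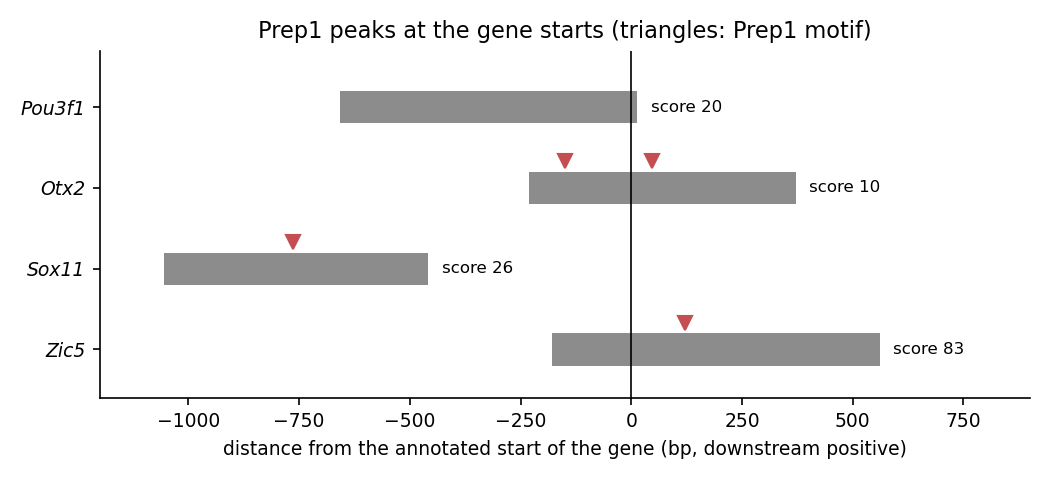
Position of the Prep1 peaks relative to the annotated gene starts, in base pairs with downstream positive. Each bar is 1 peak with its score, and triangles mark letters of the form TGANNGNCA. The *Zic5* peak has the highest score (83), and the *Pou3f1* peak is the only one of these 4 without a match.

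The sequences under these peaks are shown with their sites of the form that Prep1 binds together with Pbx. In the wider version given below, 3 of the 4 peaks held such a site, beside 68.0% of all peaks. Both a narrower and a wider version of the first 9 letters of that site were sought on both strands. The narrower one, TGANTGNCA, was in 49.1% of all peaks and in 5.10% of 32851 RefSeq promoters, which run from 250 bases before to 50 after a start. The wider one, TGANNGNCA, includes the narrower and was in 68.0% of peaks and 15.4% of promoters. Peaks are longer than these promoters, with a median of 680 bp. Over the middle 300 bp of each peak the shares were 45.1% for the narrower and 58.9% for the wider one. Shares of peaks given below are over whole peaks unless stated. Capitals mark the 9 letters, and each sequence is written 5′ to 3′ on the mm9 strand on which they read in this form. The first *Otx2* stretch is chr14:49287257-49287285 and the *Zic5* stretch chr14:122864763-122864791. Both are on the plus strand, opposite to the gene, and their sites lie in a UTR of the first exon. The second *Otx2* stretch, chr14:49287414-49287522, is on the plus strand too and upstream of the gene. The *Sox11* stretch is chr12:28028284-28028392 on the minus strand, which is that of the gene. The *Pou3f1* stretch, chr4:124334520-124334629 on the plus strand, is the middle of a peak with no match and is all in lower case.
Otx2 peak, at the start: agggagagaaTGATTGACAcatctaagcc
Zic5 peak: gggagccgtgTGATTGGCAgctgcctcgg
Otx2 peak, upstream: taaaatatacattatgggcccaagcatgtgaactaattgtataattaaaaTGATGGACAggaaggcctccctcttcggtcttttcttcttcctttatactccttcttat
Sox11 peak: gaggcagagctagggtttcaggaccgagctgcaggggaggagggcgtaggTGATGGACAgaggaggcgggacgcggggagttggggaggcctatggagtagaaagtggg
Pou3f1 peak: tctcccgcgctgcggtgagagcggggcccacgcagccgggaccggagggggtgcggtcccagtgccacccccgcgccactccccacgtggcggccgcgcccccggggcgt

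The *Otx2* peak held 2 sites. TGATTGACA, centred 48 bp past the start and 22 bp from the midpoint of the peak, fits the narrower form and was in 15.7% of all peaks and 0.432% of promoters. Distances are from the annotated start used here. RefSeq also gives *Otx2* starts farther inside the gene, the nearest at chr14:49287183, and TGATTGACA lies upstream of those. TGATGGACA, centred 149 bp before the start, fits the wider form alone. The *Sox11* peak held these same letters, TGATGGACA, 764 bp before its start and 7 bp from the midpoint of the peak, and they were in 3.05% of peaks and 0.268% of promoters. The *Zic5* peak held TGATTGGCA, of the narrower form, centred 122 bp past the start, and this was in 5.77% of peaks and 0.417% of promoters. Of these, the sites at the *Otx2* start and in the *Sox11* peak lay closest to the midpoints of their peaks.

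An octamer, TGATTNAT, shares its first letters with both forms but cannot be the same match. It was in 8.41% of peaks and 3.22% of promoters, and in 4.92% of peaks within their middle 300 bp. The peak downstream of *Zic5* held it at 2 places, as TGATTGAT, besides 1 match to the narrower form, TGAATGCCA. None of the peaks at the 4 starts held it. RefSeq promoters were found for 6 of the 8 genes, not for *Pou3f1* and *Zic2*. Of these 6 only *Otx2* had a match there, to the sites already described, and none had the octamer.

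The remaining genes were far from any listed peak. The nearest peak was 715 kb from the start of *Foxd3*, 865 kb from that of *Fgf5* and 2856 kb from that of *Sox4*, while the median distance over all genes placed was 121.2 kb. Only 1.81% of genes had a nearest peak farther away than *Sox4*. *Pou3f1* had another peak of high score (115) with its midpoint 93813 bp downstream of its start, inside the gene *Inpp5b*. That peak held the octamer once, as TGATTCAT, and the wider form at 2 places, as TGACAGCCA and TGACCGGCA. Distance alone assigns no peak to a gene.

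The RNA levels spread over a wide range in both libraries, and together the 8 genes took 0.0313% of the reads in wild type and 0.0316% in the library labelled *Prep1*-/-. In wild type the order by RPKM was *Sox4* (16.9), *Pou3f1* (16.3), *Sox11* (10.8), *Zic2* (10.7), *Foxd3* (5.53), *Otx2* (1.62), *Zic5* (1.56) and *Fgf5* (0.596). The neighbours *Sox4* and *Pou3f1*, *Sox11* and *Zic2*, and *Otx2* and *Zic5* had overlapping counting intervals in this order. In the library labelled *Prep1*-/- *Pou3f1* (16.4) and *Sox4* (15.2) stood first with overlapping intervals, *Zic2* (11.1) and *Foxd3* (10.8) came next, also overlapping, and *Sox11* (8.90), *Otx2* (3.57), *Zic5* (1.26) and *Fgf5* (0.193) followed in separate steps. *Foxd3* thus moved past *Sox11*, and *Otx2* separated from *Zic5*. Levels of *Sox11* and *Sox4* are less certain than their ratios. For *Sox11* the deposited RPKM would correspond to a gene length of 9051 bp, close to the 8451 bp of RefSeq and far from the 2013 bp of GENCODE M1. For *Sox4* it would correspond to 5887 bp, above the 4781 bp of RefSeq and the 4795 bp of GENCODE M1. These lengths take the summed reads as the library size, so they are approximate.

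**Figure D2:**
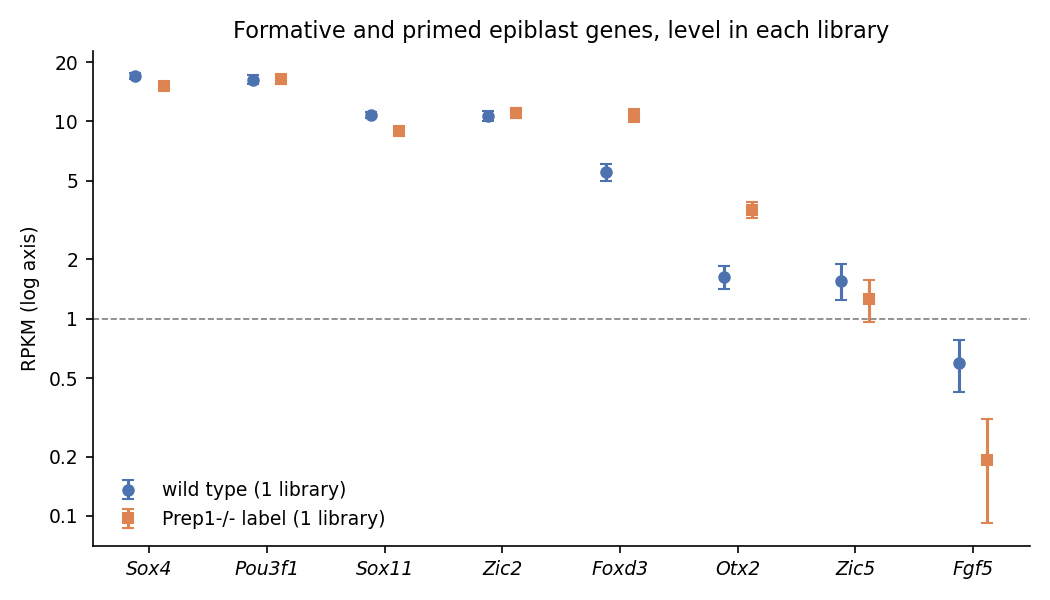
RPKM of each gene by library, wild type as circles and the library labelled Prep1-/- as squares, on a log axis, with 95% Poisson intervals of the read count as bars and the RPKM filter of 1 as a dashed line. *Foxd3* and *Otx2* stand higher in the library labelled Prep1-/-, and *Fgf5* lies below 1 RPKM in both.

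The ratio thresholds of the study were used. A gene counted as down if its KO/WT ratio was below 0.7 while wild type had more than 1 RPKM. It counted as up if the ratio exceeded 1.5 while the library labelled *Prep1*-/- had more than 1 RPKM. Of the 8 genes 2 were up, *Otx2* and *Foxd3*, out of 7 that could be, and the background was 7.20% of genes. The study states its RPKM filter for wild type. With that filter for the up calls too, the same 2 genes were up, and the background was 4.52%. None was down of the 7 that could be, where the background was 13.8%. The counting interval of the ratio lay above 1 for 2 genes (*Otx2*, *Foxd3*) and below 1 for 3 (*Fgf5*, *Sox4*, *Sox11*), while over all genes with at least 20 reads in the libraries together it lay above 1 for 20.6% and below 1 for 36.0%. Such an interval holds counting error only. The median log2 KO/WT ratio over the 8 genes was -0.07, and it was also -0.07 over the 13218 genes that exceeded 1 RPKM in each library.

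**Figure D3:**
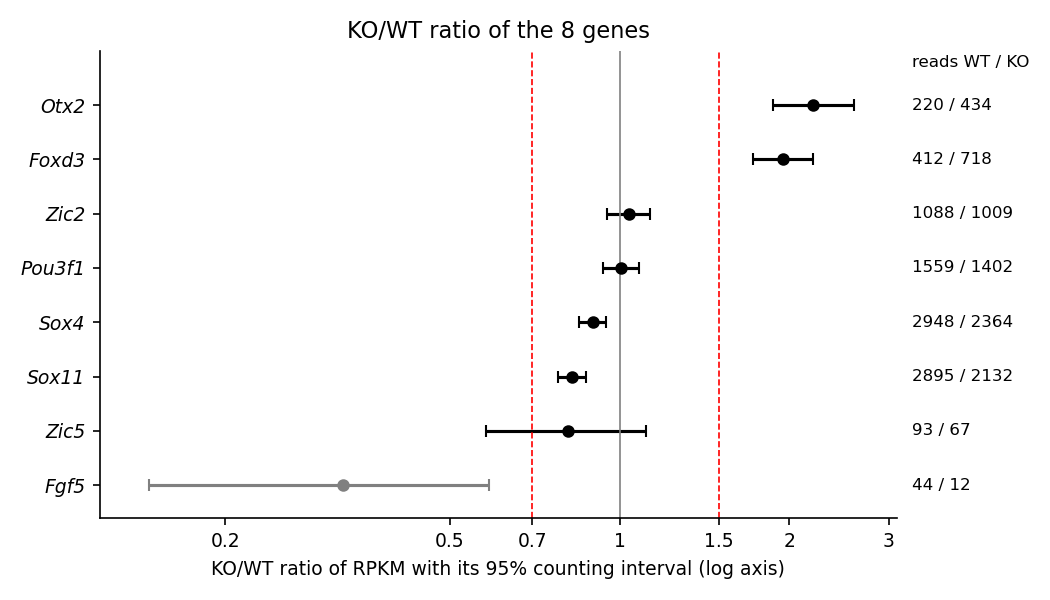
KO/WT ratio of RPKM of each gene on a log axis, with its exact 95% counting interval and the reads in each library at the right. Dashed lines mark the thresholds 0.7 and 1.5, and *Otx2* and *Foxd3* lie above the upper one with their whole intervals.

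Among the signals, *Fgf5* encodes the secreted growth factor used as the classic marker of the post-implantation epiblast. It is on chromosome 5 (chr5:98683203-98706049, plus strand, ENSMUSG00000029337). It had 44 reads in wild type and 12 in the library labelled *Prep1*-/-. The ratio was 0.323, with an interval from 0.147 to 0.587. It lay below the RPKM filter in both libraries and so could be called in neither direction. Its close relative *Fgf4*, which ES cells themselves secrete, had 4738 and 5175 reads and a ratio of 1.22 (1.17 to 1.27), so that *Fgf5* made up 0.920% (95% interval 0.669 to 1.23) of the reads of *Fgf4*, *Fgf5* and *Fgf6* in wild type and 0.231% (0.120 to 0.404) in the other library. *Fgf6* had no reads in either library.

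*Otx2* encodes a homeodomain factor that drives exit from the naive state and later patterns the forebrain. It lies at chr14:49277354-49287319 on the minus strand (ENSMUSG00000021848). There were 220 reads in wild type and 434 in the library labelled *Prep1*-/-, that is, 1.62 and 3.57 RPKM. The interval of its ratio, 1.87 to 2.61, lay wholly above the threshold. Among genes above 1 RPKM in wild type its level stood at percentile 8.32, and it stood at percentile 22.8 in the library labelled *Prep1*-/-, so *Otx2* remained a gene of low level in both. The paralogue *Otx1* differed the other way, from 47 to 10 reads, with a ratio of 0.256 (0.107 to 0.477). *Otx1* lay below the RPKM filter in both libraries, at 0.589 and 0.151 RPKM. Like 21.0% of all genes placed, it had a Prep1 peak inside the gene or within 20 kb of its start. *Otx1* gave 17.6% of the reads of *Otx1* and *Otx2* (13.2 to 22.7) in wild type and 2.25% (1.09 to 4.10) in the library labelled *Prep1*-/-, and these intervals did not overlap. The expressed neighbours of *Otx2* had ratios near 1, *6720456H20Rik* 1.15 and *Exoc5* 1.01.

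*Pou3f1* encodes Oct6, a POU factor of the post-implantation epiblast that promotes neural fate. It lies at chr4:124334896-124337899 on the plus strand (ENSMUSG00000078236). It gave 1559 reads in wild type, at 16.3 RPKM, and 1402 under the *Prep1*-/- label, at 16.4 RPKM. The ratio of 1.01 had an interval from 0.935 to 1.08, so a change as large as either threshold lies outside it, as far as counting error goes. The other genes of the class were low, *Pou3f4* with 37 and 6 reads, *Pou3f3* with 18 and 3 and *Pou3f2* with 4 in each library. *Pou3f4* had a ratio of 0.206 (0.0625 to 0.433). *Pou3f3* and *Pou3f4* lay below 1 RPKM in both libraries, and each had a Prep1 peak inside the gene or within 20 kb of its start. An annotated pseudogene entry covers the same stretch as *Pou3f1* and was not among the tabulated genes. The next expressed gene, *Utp11l*, had a ratio of 0.976.

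*Zic2* and *Zic5* encode zinc finger factors, of which Zic2 occupies enhancers in ES cells and is needed later for forebrain and neural crest formation. *Zic2* (chr14:122874604-122879074, plus strand, ENSMUSG00000061524) gave 1088 reads at 10.7 RPKM in wild type and 1009 at 11.1 RPKM under the *Prep1*-/- label, with a ratio of 1.04 (0.951 to 1.13). *Zic5* (chr14:122856017-122864899, minus strand, ENSMUSG00000041703) gave 93 reads at 1.56 RPKM and 67 at 1.26 RPKM in the same order, with a ratio of 0.809 (0.579 to 1.11). The libraries overlapped for both genes within counting error, and for *Zic5* the interval is wide enough to hold a ratio below 0.7. *Zic5* supplied 7.87% (6.40 to 9.56) of the reads of the pair in wild type and 6.23% (4.86 to 7.84) in the library labelled *Prep1*-/-. *Zic1* had 77 and 60 reads and *Zic4* had 4 and 2. On the other side of *Zic2*, *Pcca* had a ratio of 0.802 (0.670 to 0.956).

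*Foxd3* encodes a forkhead factor that silences and primes enhancers in pluripotent cells and later specifies neural crest. It is a gene at chr4:99322990-99325362 on the plus strand (ENSMUSG00000067261). Wild type gave 412 reads, at 5.53 RPKM, and the library labelled *Prep1*-/- gave 718, at 10.8 RPKM. The interval of the ratio, 1.72 to 2.20, lay above 1.5. The difference of 5.23 RPKM was the largest of the 8 genes, and it took *Foxd3* from percentile 32.1 to percentile 49.3 among genes above 1 RPKM. *Foxd1*, *Foxd2* and *Foxd4* had at most 13 reads in either library. The expressed neighbour *Alg6* had a ratio of 1.11 (0.987 to 1.24).

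*Sox4* and *Sox11* encode SoxC factors, transcriptional activators of neuronal and progenitor genes. *Sox4* (chr13:29040788-29045582, minus strand, ENSMUSG00000076431) went from 2948 reads at 16.9 RPKM in wild type to 2364 reads at 15.2 RPKM under the *Prep1*-/- label, with a ratio of 0.897 (0.849 to 0.947). *Sox11* (chr12:28025562-28027574, minus strand, ENSMUSG00000063632) went from 2895 reads at 10.8 RPKM to 2132 at 8.90 RPKM, with a ratio of 0.824 (0.778 to 0.871). Both intervals lay below 1 and above 0.7. *Sox12*, the remaining SoxC gene, had 6222 and 5916 reads and a ratio of 1.06 (1.03 to 1.10), and its share of SoxC reads was 51.6% (50.7 to 52.5) in wild type and 56.8% (55.9 to 57.8) in the library labelled *Prep1*-/-. Reads at *Sox4* may be split with *AL606511.8*, an entry nested in it on the same strand that had 232 and 191 reads, and a non-coding gene on the opposite strand, *Gm17419*, also overlaps *Sox4*. The study describes the RNAs it tabulated as those of the sense strand, and its methods give no strand setting for the counting.

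The 8 genes were set beside other genes of the same transition. Of 23 other formative and primed genes, 22 could be called in each direction. Of these, 3 were down, a share near the background of 13.8%, and none was up (background 7.20%). The median log2 ratio was -0.02, with a sign that changed with the scaling, and the ratios ran from 0.249 to 1.46. The 3 were *T* (0.249, interval 0.215 to 0.285), *Eomes* (0.504, 0.443 to 0.572) and *Fst* (0.625, 0.462 to 0.830). *T* and *Eomes* encode T-box factors of the primitive streak, and *Fst* the activin antagonist follistatin. *T* had 1091 reads in wild type and 242 in the library labelled *Prep1*-/-. The other extreme was *Lefty2*, a Nodal inhibitor, at 1.46 (1.33 to 1.61). The members with most reads were near 1, *Dnmt3b*, a de novo DNA methyltransferase, at 1.01 and *Etv4*, a target of FGF signalling, at 1.14. Of the 23 genes 9 had a Prep1 peak within 20 kb, *Eomes* among them.

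All 15 naive pluripotency genes could be called, and 5 were up (*Klf4*, *Prdm14*, *Nr0b1*, *Nr5a2* and *Tcl1*) against a background of 7.20%, while none was down against 13.8%. Their median log2 ratio was 0.40. *Esrrb*, an orphan nuclear receptor, had most reads in this list and a ratio of 1.32. *Klf5* had a ratio of 1.13. The highest ratio was that of *Prdm14*, at 2.94 (2.48 to 3.51), and the lowest that of *Zfp42*, at 0.801. The ratios of *Otx2* and *Foxd3* were thus within the range of this list, but in its upper part and above its median ratio of 1.32. Only *Prdm14* exceeded *Otx2*, and only *Prdm14* and *Tcl1* (2.05) exceeded *Foxd3*. *Zfp42* is on chromosome 8, where the 702 genes above 1 RPKM in both libraries had a median log2 ratio of -0.36. Over all chromosomes that median was -0.07. *Klf2*, another naive gene on chromosome 8, had a ratio of 1.25 (1.20 to 1.30). Whether the chromosome bears on the ratio of *Zfp42* was not tested. The 7 general pluripotency genes had none called and a median of 0.15, from *Lin28* at 1.02 to *Sox2* at 1.32, with *Sall4* at 1.25 and *Utf1* at 1.04.

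**Figure D4:**
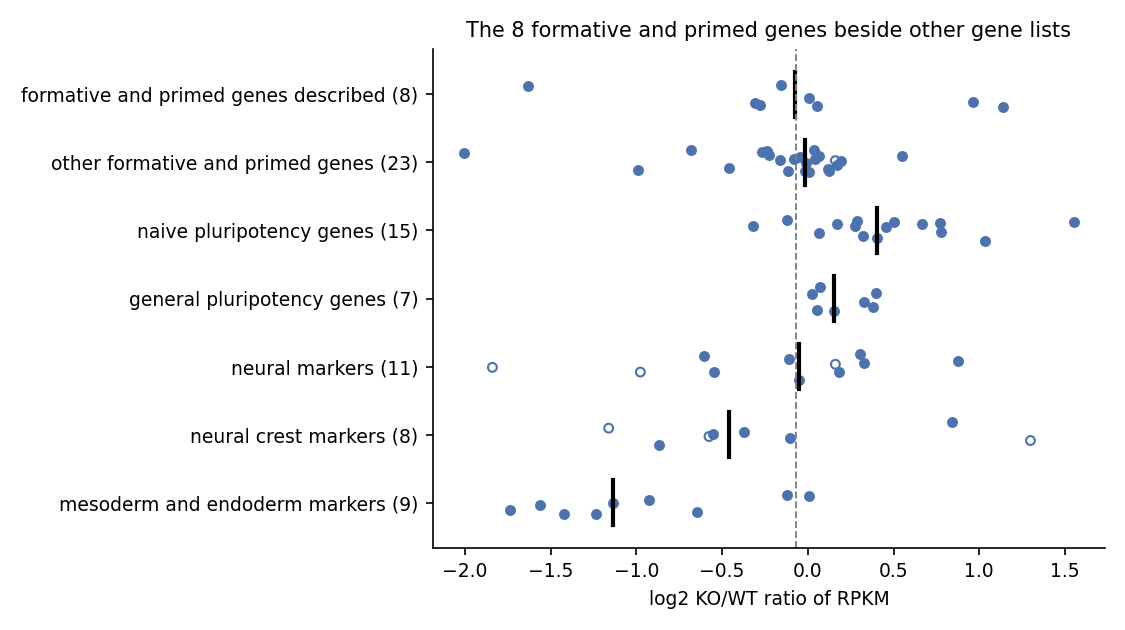
Log2 KO/WT ratio of RPKM for the 8 genes and for 6 other lists, with the number of genes in brackets. Each point is 1 gene (open below 20 reads in the libraries together), black bars are list medians, and the dashed line is the median of genes above 1 RPKM in both libraries. The naive genes centre at 0.40 and the mesoderm and endoderm markers at -1.13, and the 8 genes spread to both sides of their median of -0.07.

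Markers of cells that can arise in ES cultures were counted beside the 8 genes. Of 9 mesoderm and endoderm markers 5 had the RPKM to be called down and 2 to be called up. Of the 5, *Mixl1*, *Gata4*, *Gata6* and *Kdr* were down (background 13.8%), and all but *Gata4* were below 1 RPKM in the library labelled *Prep1*-/-, so they passed the filter through wild type alone. The median log2 ratio of the 9 was -1.13, or -0.35 with 1 RPKM added to both values. Their summed level was 14.1 RPKM in wild type and 7.46 in the library labelled *Prep1*-/-, and none was at 0. *Gata4*, an endoderm factor, had most reads, 1156 and 350 (0.339, interval 0.300 to 0.382), followed by *Kdr* (0.639), with *Mixl1* lowest at 0.300 and *Tbx6* highest at 1.01. Of 11 neural markers 5 could be called down and 6 up. *Nes* was down (0.684, background 13.8%). *Pax6* (1.83) was up (background 7.20%) only because the filter was on the library where it was high. It had 0.939 RPKM in wild type and 1.72 in the other. The list had a median of -0.05, with a sign that changed with the scaling. Its summed levels were 252 and 231 RPKM, of which *Stmn2* (0.925) gave the most. *Fabp7* was the one marker at 0 reads, in the library labelled *Prep1*-/-, against 3 in wild type. Of 8 neural crest markers 2 could be called down and none up, because no marker exceeded 1 RPKM in the library labelled *Prep1*-/-. Both that could be called, *Sox10* (0.548) and *Tcfap2a* (0.683), were down (background 13.8%), and they passed the filter through wild type alone. The median of the 8 was -0.46, or -0.18 with 0.1 RPKM added to both values and -0.03 with 1. Among those with at least 50 reads *Snai2* had the highest ratio, 1.79, with an interval from 0.999 to 3.42. Their summed levels were 3.56 and 2.89 RPKM. The part of differentiating cells in the ratios of the 8 genes was not tested.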

How the data were processed

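RNA-seq of 1 wild type and 1 *Prep1*-/- (KO2) ES cell library and Prep1 ChIP-seq of R1 ES cells were analysed. The authors assigned paired-end reads to Ensembl release 63 genes on mm9 with RSEM and used DESeq, and they mapped ChIP reads with BWA and called peaks with MACS. Program versions are not given in the sources used here. The deposited read count is a whole number per gene without normalization. The deposited RPKM was made by the authors from the count plus 1, and it is Inf for 85 genes, which were left out. The deposited peak score is a rounded fold enrichment over input. The input library entered only through the authors' peak calls.

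With 29596294 and 25717811 reads and 1 library per genotype, no test was run and no p-value is given. The KO/WT ratio of RPKM equals the ratio of the counts plus 1 multiplied by 1.118, and its exact Clopper-Pearson 95% interval was computed from the counts with the same factor. Intervals cover counting error only, since reads are not independent molecules. Genes were placed in GENCODE M1 (NCBIM37), and promoter sequences came from RefSeq, placed on mm9 by exact match. The motif was shortened from 10 to 9 letters after matches to the longer form had been seen. The authors' own comparisons were not used. List symbols were matched by name or RefSeq synonym, and *Crx* was not found.

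The 8 genes and all lists were chosen with earlier results of these data known. All 8 genes are named, with *Pknox1*, family members and adjacent genes above 1 RPKM. A result under this rule is not reported here. Of each further list, the text names the 2 genes with most wild type reads and those with the lowest and highest ratio among genes with at least 50 reads in the libraries together. Called genes of a list, and *Klf2*, were named in addition, after their values were seen. No gene was sought by likeness of pattern, because 2 libraries give 1 ratio per gene. Alternatives were other scalings (summed counts, DESeq median of ratios, TMM of edgeR 4.0.16, median ratio of expressed genes, chromosome medians), pseudocounts, thresholds, RPKM filters and peak windows. Calls and intervals were checked on simulated data drawn with counting error alone. That check used genes above a minimum of reads and RPKM, which left out *Fgf5*, *Otx2* and *Zic5*, and it planted large changes. It does not cover ratios near the thresholds, or variation between libraries or lines. Python 3.11.15, numpy 2.4.6, pandas 2.3.3, scipy 1.17.1, matplotlib 3.10.9 and R 4.3.3 were used.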

Additional observations from a re-analysis of the deposited data

How the results depend on the processing

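No paired analysis was possible because each genotype has 1 library, and for the same reason no replicate could be left out. Of 56 recomputed ratios of the 8 genes, 54 stayed within the counting interval, and with a pseudocount of 1 RPKM *Fgf5* moved to 0.747 and *Otx2* to 1.74. *Fgf5* was called down, as 1 gene, without an RPKM filter and with a filter above 0.5. Up calls fell from 2 to 1 with a filter above 5 (*Foxd3*) and with thresholds of 0.5 and 2 (*Otx2*). *Otx2* and *Foxd3* were called up under each of the 5 other scalings and both pseudocounts. They were also the genes up with the RPKM filter on wild type, an alternative chosen after seeing the data. With DESeq scaling the interval of *Zic2* also lay above 1. The median over the 8 genes stayed between -0.07 and 0 on the log2 scale under every alternative. The median of the other formative and primed genes was 0.056 with DESeq scaling, 0.053 with TMM and 0.048 with the median ratio set to 1, so its sign depends on the scaling. That of the naive genes was 0.44 with summed counts, 0.48 with DESeq scaling, 0.47 with TMM and with the median ratio set to 1, and 0.44 with chromosome medians set to 0. That of the mesoderm and endoderm markers was -0.35 with a pseudocount of 1. That of the neural crest markers was -0.18 and -0.03 with pseudocounts of 0.1 and 1. That of the neural markers was 0.022 with DESeq scaling, 0.018 with TMM and 0.014 with the median ratio set to 1. With chromosome medians set to 0 it was 0.119, and over genes with at least 20 reads together 0.065, so its sign is not settled. With peaks scoring above the median only, 3 genes had a peak within 20 kb (*Zic2*, *Zic5*, *Sox11*) and 2 at the start. With the peak midpoint in place of any overlap, 2 had a peak at the start (*Otx2*, *Pou3f1*). Depth limits *Fgf5* and *Zic5*, whose intervals are wide.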
